A study of Mus musculus with 30 samples.

Results

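The striatum of NestinTK+GCV+ mice was compared with that of wild-type mice that received the same drug, NestinTK-GCV+ mice. The comparison rests on 8 of the 30 libraries of the study, 5 NestinTK+GCV+ and 3 NestinTK-GCV+, with 1 library per mouse. NestinTK mice carry a thymidine kinase (TK) gene under the second intron enhancer of Nestin, so that ganciclovir (GCV), which TK turns into a toxic nucleotide, kills dividing Nestin-positive cells of the subventricular zone (SVZ). All mice were adult C57Bl/6 and both groups received GCV for 4 weeks through subcutaneous minipumps, so that the pump and the drug are shared and only the transgene differs by label. The other striatum libraries came from 3 NestinTK-PBS+ and 4 NestinTK+PBS+ mice, which received PBS in place of GCV. They are used here for the effect of the transgene without the drug, which is confounded with library order. Mice are called A1 to A5 (NestinTK+GCV+), G1 to G3 (NestinTK-GCV+), P1 to P3 (NestinTK-PBS+) and T1 to T4 (NestinTK+PBS+), numbered in the order of their records. The labels give no sex, and every striatum library held Xist, from 197 to 380 CPM (counts scaled to a library total of 1e+06).

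The striatum is the input station of the basal ganglia. Most of its neurons are GABAergic medium spiny neurons, which express either dopamine D1 receptors (direct pathway) or D2 receptors (indirect pathway) and integrate cortical glutamate with dopamine through cAMP signalling. Bundles of myelinated fibres cross the tissue, and the SVZ, a niche of neural stem cells and of the neuroblasts they produce, lines its ventricular border.

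Total counts ran from 2626962 to 3371033 in the NestinTK+GCV+ libraries and from 3755752 to 4391021 in the NestinTK-GCV+ libraries. The depths did not overlap (exact permutation test over 56 splits, two-sided, unadjusted p = 0.0179, adjusted over 4 library measures p = 0.0714). The share of counts on mitochondrial genes was 6.58% to 8.27% and 6.81% to 8.12%. The library numbers of the labels were 3, 4, 7, 9 and 10 for the NestinTK+GCV+ mice and 1, 5 and 8 for the NestinTK-GCV+ mice, so that the groups were interleaved. The striatal label held in all 8 libraries: Ppp1r1b (DARPP-32) lay between 2357 and 3171 CPM, Drd1 between 657 and 878 CPM and Adora2a between 756 and 1309 CPM. Slc17a7, the vesicular glutamate transporter of cortical neurons, ranged from 4.53 CPM in G1 to 398 CPM in G3. Among the PBS libraries, T4 stood apart, with 1317 CPM of Ppp1r1b and 1423 CPM of the choroid plexus gene Ttr.

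In the SVZ of the same mice, the neuroblast gene Dcx lay between 15.1 and 23.8 CPM in the 5 NestinTK+GCV+ libraries and between 25.4 and 97.1 CPM in the 3 NestinTK-GCV+ libraries. Igfbpl1, an insulin-like growth factor (IGF) binding protein-like gene of neuroblasts, had 0 to 2 counts in NestinTK+GCV+ and 6 to 368 counts in NestinTK-GCV+ SVZ. Neither gene overlapped between the groups in the SVZ, which was the check of the labels. The gap was narrow for Dcx, and how many of all SVZ genes lack overlap was not counted. Of 14156 genes tested in the SVZ by edgeR, 0 passed in either direction after adjustment over all genes. The proliferation gene Mki67 did overlap there, with 4.06 to 26.7 CPM in NestinTK+GCV+ and 16.5 to 52.2 CPM in NestinTK-GCV+ libraries. Top2a, another gene of dividing cells, did not, with 0 to 3.38 CPM in NestinTK+GCV+ and 30.7 to 38.2 CPM in NestinTK-GCV+ SVZ. Nor did Dlx2 of the neuroblast list, with 0 to 13.1 and 14.9 to 18.6 CPM.

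A gene was tested when it passed 1 CPM in 3 or more of the 8 libraries, which 14536 of the 50508 listed genes did. Since 3 libraries of either group were enough, genes detected in 1 group alone could enter. In the striatum 582 genes rose (4.00% of those tested) and 474 genes fell (3.26%) when the transgene was present, at an adjusted p under 0.05. Every adjusted p given for genes comes from edgeR's quasi-likelihood test, adjusted over all genes tested by the method of Benjamini and Hochberg. At the thresholds of the study, a change of 2-fold or more with an unadjusted p no larger than 0.01, 307 genes were higher (2.11%) and 58 lower (0.399%). The groups did not overlap in CPM for 996 genes that were higher (6.85%) and 1026 that were lower (7.06%) in NestinTK+GCV+ striatum. At an unadjusted p under 0.05, 1599 genes were higher (11.0%) and 1589 lower (10.9%). With library totals alone in place of the TMM scaling, the median of all genes moved by 0.10 on the log2 scale and 831 genes rose and 246 fell, so that the split between the directions rests on the scaling. In the text, "rose" and "fell" refer to an adjusted p under 0.05.

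**Figure D1:**
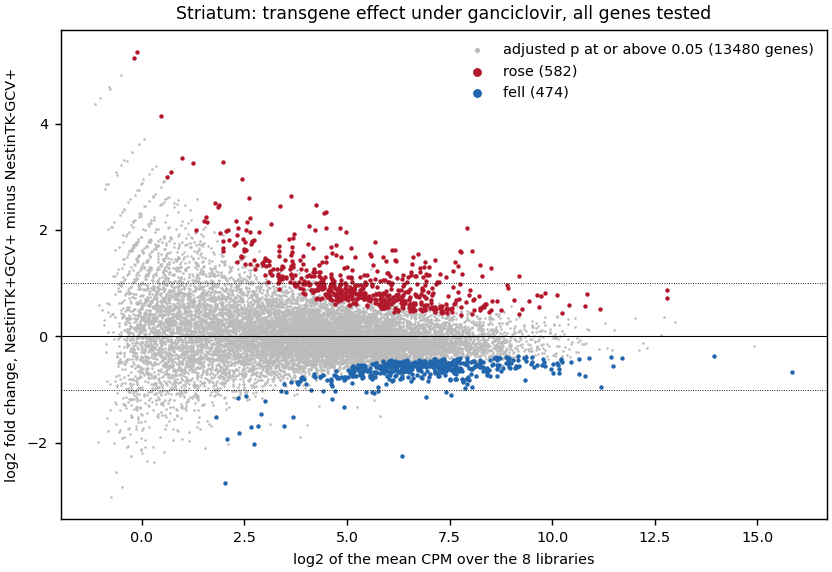
Log2 fold change of every gene tested (vertical axis, NestinTK+GCV+ minus NestinTK-GCV+ striatum, positive is higher in NestinTK+GCV+) against the log2 of its mean CPM over the 8 libraries (horizontal axis). Red points are the 582 genes that rose, blue points the 474 that fell and grey points the other genes, and dotted lines mark a 2-fold change. Genes that rose reach larger fold changes, but most genes of either set changed by less than 2-fold. Their median log2 fold changes were 0.89 and −0.59.

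The gene with the smallest p-value was Rpl30, a protein of the large ribosomal subunit (chr15:34440505-34443640 of GRCm38, minus strand). Its CPM were 353, 319, 297, 294 and 189 in A1 to A5 and 93.5, 71.8 and 120 in G1 to G3. The 12 genes named in each direction were chosen among those whose groups did not overlap, so that their separation is given by the choice. A5 was the NestinTK+GCV+ library closest to the NestinTK-GCV+ libraries. The log2 fold change was 1.61 ± 0.19 (SE, n = 5 and 3, edgeR adjusted p = 0.000119). Id4, an inhibitor of basic helix-loop-helix transcription factors (chr13:48261228-48266026, plus strand), had 402, 306, 300, 252 and 196 CPM in A1 to A5 and 80.1, 90.7 and 120 CPM in G1 to G3. It rose by 1.58 ± 0.19 on the log2 scale (SE, edgeR adjusted p = 0.000119), again with A5 lowest of its group.

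Snrnp70, the 70-kDa protein of the U1 small nuclear ribonucleoprotein that marks 5′ splice sites, lay between 322 and 442 CPM in NestinTK+GCV+ and between 112 and 195 CPM in NestinTK-GCV+ libraries, a log2 fold change of 1.34 ± 0.17. Rsrp1, which encodes an arginine- and serine-rich protein, had 237 to 316 against 98.6 to 158 CPM and rose by 1.18 ± 0.15. Eif4a2, an RNA helicase of translation initiation, had 78.1 CPM in A5, 132 to 157 CPM in the other NestinTK+GCV+ libraries and 40.1 to 56.3 CPM in the NestinTK-GCV+ libraries. Its log2 fold change was 1.48 ± 0.19. Rps27a, which encodes ubiquitin fused to a protein of the small ribosomal subunit, rose by 1.39 ± 0.18, from 46.2 to 77.1 CPM in the NestinTK-GCV+ to 112 to 181 CPM in the NestinTK+GCV+ libraries.

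Cdk9, the kinase that releases paused RNA polymerase II, had 41, 40.2, 32.1, 35.5 and 31.1 CPM in A1 to A5 and 12.8, 6.38 and 13.4 CPM in G1 to G3. The log2 fold change was 1.72 ± 0.23 (SE, edgeR adjusted p = 0.000224). Ice1, a subunit of the little elongation complex that acts on small nuclear RNA genes, rose by 1.29 ± 0.17, and A1 (170 CPM) lay above the other NestinTK+GCV+ libraries (132 to 137 CPM). Ints6l, a paralogue of an Integrator complex subunit, rose by 1.49 ± 0.20 and Gtf2h1, a subunit of the general transcription factor TFIIH, by 1.19 ± 0.16.

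Nkain2, a membrane protein that interacts with the sodium pump, had 43.7 to 85 CPM in NestinTK+GCV+ and 12.3 to 26.2 CPM in NestinTK-GCV+ libraries and rose by 1.77 ± 0.23. Sptssa, a small subunit of the enzyme that starts sphingolipid synthesis, rose by 1.68 ± 0.23, from 8.43 to 13.2 CPM to 24.2 to 39.5 CPM. The 12 genes had adjusted p-values between 0.000119 and 0.000232, and each stayed under 0.05 under all 22 other settings. Of predicted genes, 4833439L19Rik (log2 fold change 1.12 ± 0.19), the processed pseudogene Gm8292 (1.36 ± 0.25) and Gm38077 (1.82 ± 0.35) had the smallest p-values.

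Among genes that fell, mt-Tq and mt-Tl1, the mitochondrial tRNA genes for glutamine and leucine, were both among the 12 named. These 12 were also chosen among genes without overlap. The CPM of mt-Tq (chrM:3772-3842, minus strand) were 59.4, 72.1, 88, 117 and 81.1 in A1 to A5 and 158, 214 and 180 in G1 to G3. mt-Tq fell by 1.13 on the log2 scale (SE 0.17, edgeR adjusted p = 0.000459). mt-Tl1 (chrM:2676-2750, plus strand) had 72.8 to 155 CPM in NestinTK+GCV+ and 208 to 281 CPM in NestinTK-GCV+ libraries and fell by 1.04 (SE 0.17). These genes abut other mitochondrial genes, and reads that span a border could be counted for either.

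Zdhhc9, a palmitoyltransferase on the X chromosome, had 31.8, 35.2, 41.4, 40.3 and 44.7 CPM in A1 to A5 and 68.1, 87.9 and 79.7 CPM in G1 to G3. It fell by 1.02 on the log2 scale (SE 0.16, edgeR adjusted p = 0.000483). Iglon5, a neuronal cell adhesion molecule, fell by 1.06 (SE 0.17) and Tbc1d30, a Rab GTPase-activating protein, by 1.05 (SE 0.19). Mpi, the mannose phosphate isomerase of protein glycosylation, fell by 1.17 (SE 0.22). Acvrl1, a receptor of the transforming growth factor family best known in endothelium, had 20.4 to 45.7 CPM in NestinTK+GCV+ and 58.2 to 89.9 CPM in NestinTK-GCV+ libraries and fell by 1.05 (SE 0.20).

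Astn2, an astrotactin of neuronal migration, was low in both groups, with 1.41 to 2.87 CPM in NestinTK+GCV+ and 7.31 to 8.17 CPM in NestinTK-GCV+ libraries, and its log2 fold change was −1.93 ± 0.40. Gls2, a glutaminase, had 3.66 to 5.63 against 10.5 to 14.2 CPM and fell by 1.47 (SE 0.30). Hs3st2, a heparan sulfate sulfotransferase, had 9.49 CPM in G1, 16.9 CPM in G2 and 32.3 CPM in G3, with 3.18 to 7.62 CPM in NestinTK+GCV+ libraries, and fell by 1.69 (SE 0.34). Nptxr, the neuronal pentraxin receptor, had 161, 191 and 482 CPM in G1 to G3 and 94.4 to 155 CPM in A1 to A5, and fell by 1.10 (SE 0.24). For both genes G3, the library with the most Slc17a7, was the highest. Without G3 the log2 fold change of Hs3st2 was −1.10 at an adjusted p of 0.0647 and that of Nptxr −0.43 at 0.124 (edgeR). The small nucleolar RNA gene Snord89 fell by 1.04 (SE 0.23).

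The predicted gene RP23-43M12.2 fell by 1.02 (SE 0.29), while 8030462N17Rik and Gm10240 had log2 fold changes of −1.32 (adjusted p = 0.056) and −1.01 (adjusted p = 0.0699) and did not pass. With the mean level of the myelin genes as a covariate, 9 of the 12 named genes with lower values, all but mt-Tq, Zdhhc9 and mt-Tl1, had adjusted p-values of 0.0728 or more (edgeR), while 11 of the 12 log2 fold changes stayed within 1.5 times of those given above. Astn2 was at −1.97, Mpi at −1.13 and Snord89 at −1.21 in that fit, and the exception was Nptxr at −0.61.

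**Figure D2:**
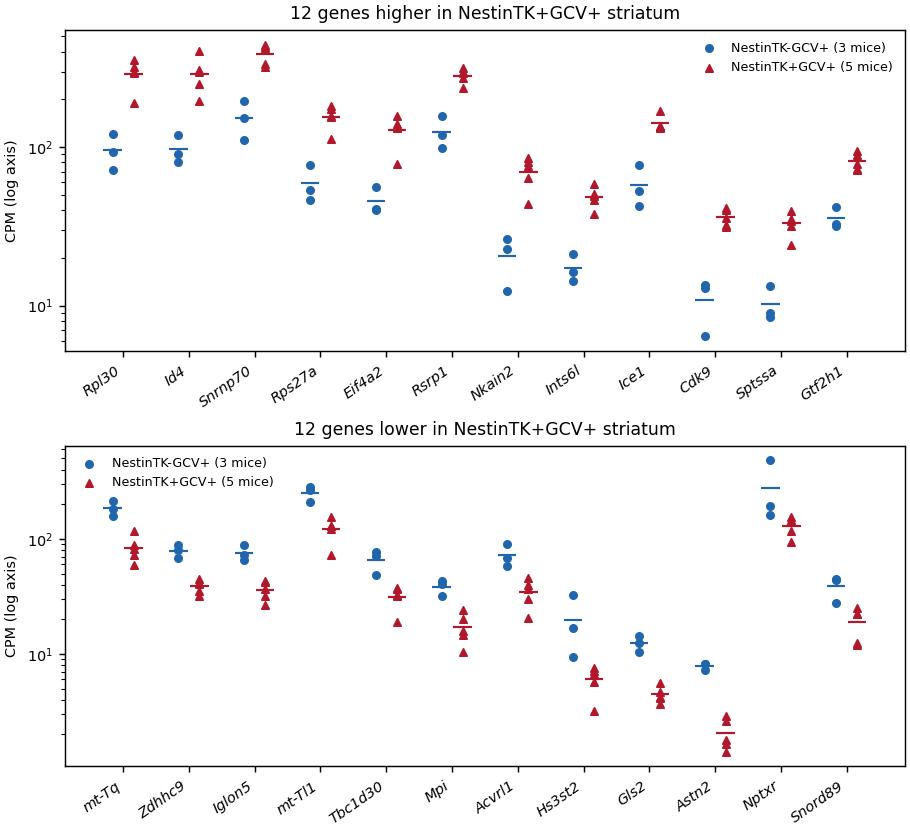
CPM on a log axis of the 12 called genes with the smallest p-values in each direction, 1 point per mouse, with blue circles for the 3 NestinTK-GCV+ and red triangles for the 5 NestinTK+GCV+ libraries and lines at the group means. These genes were chosen among those without overlap, so that the gap between the colours is given by the choice; A5 is the lowest red triangle for Rpl30, Id4, Eif4a2 and Nkain2, and the widest blue spread is that of Hs3st2 and Nptxr.

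The most abundant transcript of the tissue, Gm42418, a noncoding gene that lies over the ribosomal RNA repeat sequence on chromosome 17 (chr17:39846958-39848788), was also lower in NestinTK+GCV+ mice. It was picked after its values were seen. It took 4.07%, 4.59%, 5.22%, 4.64% and 6.01% of the counts in A1 to A5 and 6.74%, 8.86% and 6.29% in G1 to G3, so that the groups were just apart. Its log2 fold change was −0.67 ± 0.14 (SE, edgeR adjusted p = 0.0043). The PBS libraries ranged from 4.70% to 10.5%. The mitochondrial ribosomal RNA mt-Rnr1 fell by 0.37 (SE 0.11) and mt-Rnr2 had a log2 fold change of −0.18 ± 0.11 (adjusted p = 0.358). The part of these transcripts in the other results was not tested.

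Genes that rose and fell differed in base composition. The last 300 bases of their transcripts, which the 3′-end kit of the striatum reads, had a median GC content of 38.3% for the genes that rose, 47.0% for those that fell and 42.0% for all genes tested. Across 14195 genes the Spearman correlation between log2 fold change and end GC was −0.18, given as a description, since genes of 1 library share its composition and depth. With each library's curve on end GC taken out, 491 genes rose and 431 fell, of which 457 and 343 were among the 582 and 474. With all libraries thinned to the lowest total, 572 rose and 429 fell, of which 515 and 403 were among them.

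The position of the PBS libraries was then examined, since they were not used to choose these genes. The mean log2 level of the 582 genes that rose, taken as the difference from the mean of all 15 striatum libraries, was 0.42, 0.45, 0.38, 0.29 and −0.03 in A1 to A5 and −0.73, −0.97 and −0.45 in G1 to G3. It was 0.41, −0.37 and 0.35 in P1 to P3 and 0.07, −0.05, 0.11 and 0.11 in T1 to T4. Thus P1 and P3 lay with the NestinTK+GCV+ libraries, P2 next to G3, and A5 among the NestinTK+PBS+ libraries. For the 474 genes that fell, the levels were −0.32, −0.30, −0.25, −0.21 and −0.04 in A1 to A5, 0.32, 0.42 and 0.41 in G1 to G3, −0.21, 0.16 and −0.15 in P1 to P3 and 0.06, 0.17, 0.04 and −0.11 in T1 to T4. All 7 PBS libraries lay short of the NestinTK-GCV+ libraries in both sets, and all had later library numbers than the GCV libraries.

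**Figure D3:**
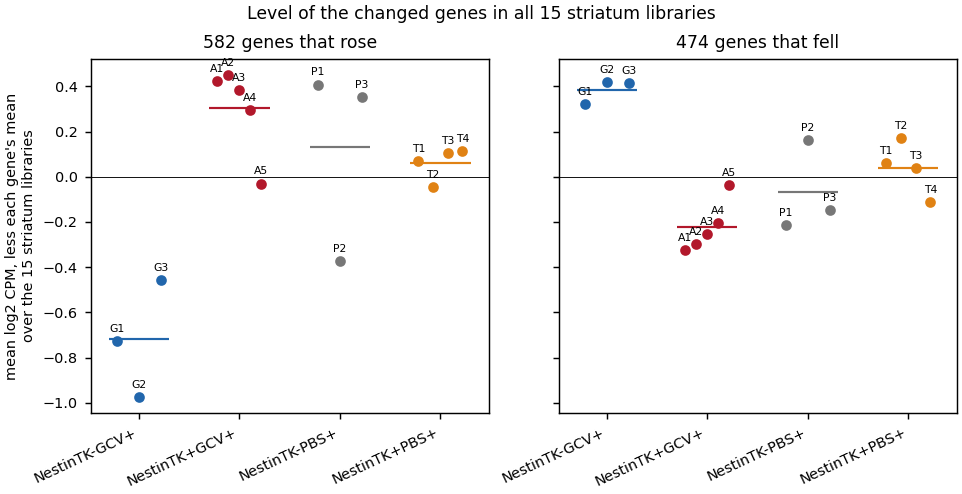
Mean log2 CPM of the 582 genes that rose (left) and the 474 that fell (right), less each gene's mean over the 15 striatum libraries, with 1 labelled point per mouse and lines at the group means. The G and A libraries were used to choose the genes and the P and T libraries were not; the 3 G libraries lie below every P and T library on the left and above them on the right.

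The transgene effect under PBS, NestinTK+PBS+ against NestinTK-PBS+, shares no library with that under GCV. Its groups also differ in library order and, but for T3, in the range of mouse numbers. There, 0 genes passed an adjusted p of 0.05 by edgeR's quasi-likelihood test (608 genes higher and 380 lower at an unadjusted p under 0.05 of 15419 tested). Of the 582 genes that rose under GCV, 5 were higher and 16 lower under PBS at an unadjusted p under 0.05, which is 0.859% and 2.75%, beside 3.85% and 2.41% of all genes tested in both. Their median log2 change under PBS was −0.11. Of the 474 genes that fell, 48 were higher (10.1%) and 3 lower (0.633%), with a median of 0.07. The median of all genes was −0.00. In the SVZ of the GCV mice, measured with another kit, 12 of 569 genes of the first set were higher and 6 lower at an unadjusted p under 0.05 (2.11% and 1.05%), beside 2.07% and 1.57% of all genes. Of 465 genes of the other set, 11 were higher and 12 lower (2.37% and 2.58%).

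The difference between the effect under GCV and that under PBS was tested in 1 fit of all 15 libraries. It passed for 126 genes in either direction (0.817%), among them 11 of the 12 named genes that rose, all but Sptssa, and 7 of the 12 that fell. These genes were chosen by their effect under GCV, which is 1 term of the difference, so that nothing is read from their number. For Cdk9 the effect was 1.72 under GCV and −0.47 under PBS, with a difference of 2.21 on the log2 scale (edgeR adjusted p = 0.00558). For Snrnp70 the difference was 1.66 and for Id4 1.90 (adjusted p = 0.0211 for both), and for mt-Tq −1.84 (adjusted p = 0.0211). For Tbc1d30, Acvrl1, Hs3st2, Gls2 and Snord89 it did not pass (adjusted p between 0.0784 and 0.24). The count of 126 fell to 0 without P3, 1 without P1, 2 without A1 and 4 without G2, and rose to 549 without P2 and 476 without T4.

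**Figure D4:**
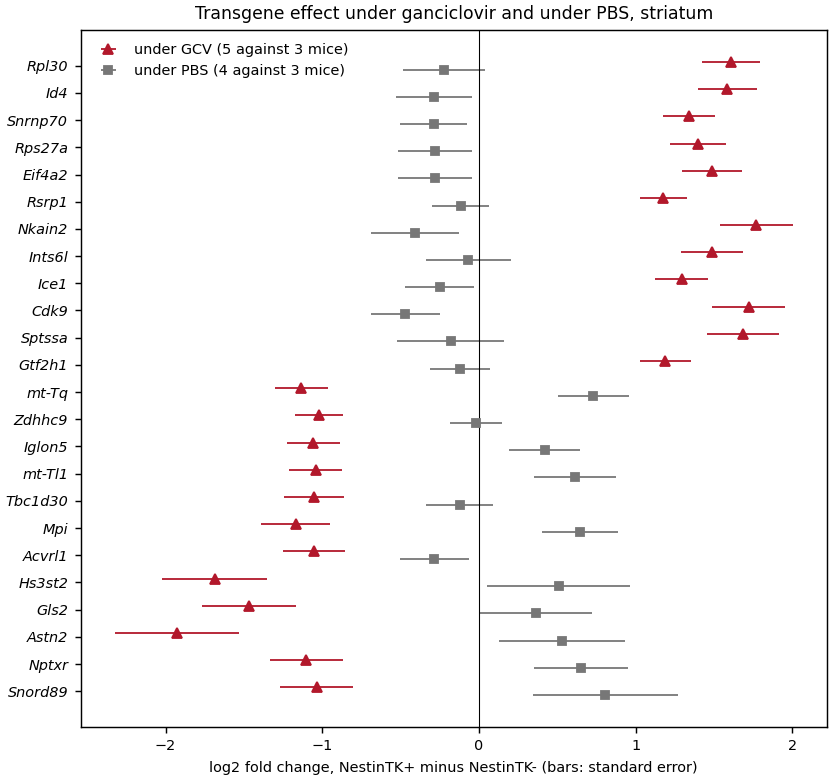
Log2 fold change, NestinTK+ minus NestinTK- striatum, of the 24 named genes under GCV (red triangles, 5 against 3 mice) and under PBS (grey squares, 4 against 3 mice), with bars of 1 standard error. The genes were chosen by the red values; the grey values lie between −0.47 and 0.81, on the opposite side of 0 for all but Zdhhc9, Tbc1d30 and Acvrl1.

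The gene lists were examined next, each by the number of tested members that rose or fell and by its median, beside 4.00%, 3.26% and −0.01 for all genes. Of 122 named genes that passed, 25 had an adjusted p above 0.05 in 8 or more of the 22 other fits, namely Sos2, Igfbp7, Hist3h2ba, H1fx, H3f3b, Gjb6, Crym, Mt2, Ramp2, Bsg, Enpp2, Col25a1, Insm1, Rxrg, Drd2, Kcnc1, Cacna2d1, Rheb, Arc, Nfil3, Nf1, Tapbp, mt-Rnr1, Malat1 and Slc17a7. The 22 include the fit without G1 again, as a restriction by mouse number that removed G1 alone. A loss without G1 therefore counts again, and Mt2, Nf1 and Rheb reach 8 only through this. In a whole tissue, fewer cells of a type and less RNA per cell cannot be told apart.

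Of 79 genes of cytosolic ribosomal proteins, 28 rose and 1 fell, with a median log2 fold change of 0.16 (0.15 to 0.26 in the other fits). Beside Rpl30 and Rps27a, Rpl35a had 66.5, 68.5, 73.8, 71.5 and 41.4 CPM in A1 to A5 and 24, 23.5 and 28.8 CPM in G1 to G3. A5 stood apart from the other NestinTK+GCV+ libraries but above the NestinTK-GCV+ ones, and the log2 fold change was 1.34 ± 0.19. Rps23 rose by 1.16 ± 0.17. The list's summed level was 20330 to 21960 CPM in NestinTK+GCV+ and 17960 to 19740 CPM in NestinTK-GCV+ libraries, with 17710 to 21710 CPM in the PBS libraries. Genes of ribosomal proteins have many processed pseudogenes, which can take some of their reads, so that single values are uncertain. The list's median was −0.07 under PBS and −0.01 in the SVZ.

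Of 69 genes of RNA splicing, 13 rose and 2 fell, with a median of 0.23 (0.13 to 0.33 in the other fits). Srsf1, a serine- and arginine-rich splicing factor, had 217, 179, 183, 164 and 193 CPM in A1 to A5 and 96.6, 72 and 107 CPM in G1 to G3, without overlap, and rose by 1.02 ± 0.15. Sf1, which binds the branch point, rose by 1.11 ± 0.17 and Srsf2 by 0.87 ± 0.14, both without overlap. For Srsf1, Srsf2 and Sf1 the difference from the effect under PBS also passed (edgeR adjusted p = 0.0211, 0.0211 and 0.0358).

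Noncoding RNAs of the nucleus had a median of 0.33, with 6 of 22 that rose and 1 that fell. The mean log2 level of the list, less the mean of the 15 libraries, was 0.19 to 0.37 in A1 to A5. It was 0.29, −0.14 and −0.17 in G1 to G3, so that G1 lay among the NestinTK+GCV+ libraries. Summed levels were apart, at 20140 to 22460 CPM in NestinTK+GCV+ and 7714 to 18380 CPM in NestinTK-GCV+ libraries. Meg3, a maternally expressed RNA, had 8466, 8458, 8510, 7202 and 9352 CPM in A1 to A5 and 6752, 5223 and 3224 CPM in G1 to G3, and rose by 0.73 ± 0.16 (edgeR adjusted p = 0.00836). Malat1, a nuclear speckle RNA, rose by 0.87 ± 0.26 but overlapped, with 7071 to 9560 CPM in NestinTK+GCV+ libraries and 8647, 3229 and 2268 CPM in G1 to G3. Its log2 fold change was 1.67 without G1 and 0.56 without G3 (edgeR adjusted p = 0.114). Miat rose by 1.07 ± 0.22 and the small nucleolar RNA host gene Snhg3 by 1.27 ± 0.29. Peg13, which lies within Trappc9 and is expressed from the paternal allele, fell by 0.80 (SE 0.13), from 289 to 326 CPM in NestinTK-GCV+ to 140 to 202 CPM in NestinTK+GCV+ libraries.

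The nuclear genes of the mitochondrial respiratory chain moved in both directions. Of 93 genes, 14 rose and 4 fell, with a median of −0.01. The first 4 by p-value were Cox7c (log2 fold change 1.32 ± 0.20), Ndufa1 (1.29 ± 0.20), Ndufb3 (1.13 ± 0.18) and Ndufb6 (1.10 ± 0.18), small subunits of complexes IV and I. Ndufa1 had 570, 431, 548, 438 and 368 CPM in A1 to A5 and 194, 115 and 269 CPM in G1 to G3, so that the groups did not overlap. Of the 7 tested protein genes of the mitochondrial genome, 0 passed in either direction (edgeR's quasi-likelihood test, with 2 higher and 0 lower at an unadjusted p under 0.05), and the nearest was mt-Cytb with a log2 fold change of 0.37 ± 0.12 (adjusted p = 0.0665).

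Of 37 genes of the proteasome, 0 rose and 5 fell, with a median of −0.02. Psmd4, the ubiquitin receptor of the regulatory particle, had 197, 205, 226, 235 and 266 CPM in A1 to A5 and 375, 432 and 322 CPM in G1 to G3, and fell by 0.74 (SE 0.13). Psmb3, a core subunit, fell by 0.64 (SE 0.13), and the ATPases Psmc5 and Psmc1 by 0.61 and 0.63. Of 22 histone genes, 4 rose and 2 fell. The linker histone Hist1h1c rose by 0.78 ± 0.17, H3f3b of the variant H3.3 by 0.53 ± 0.15, and Hist3h2ba and H1fx fell by 0.58 and 0.66.

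**Figure D5:**
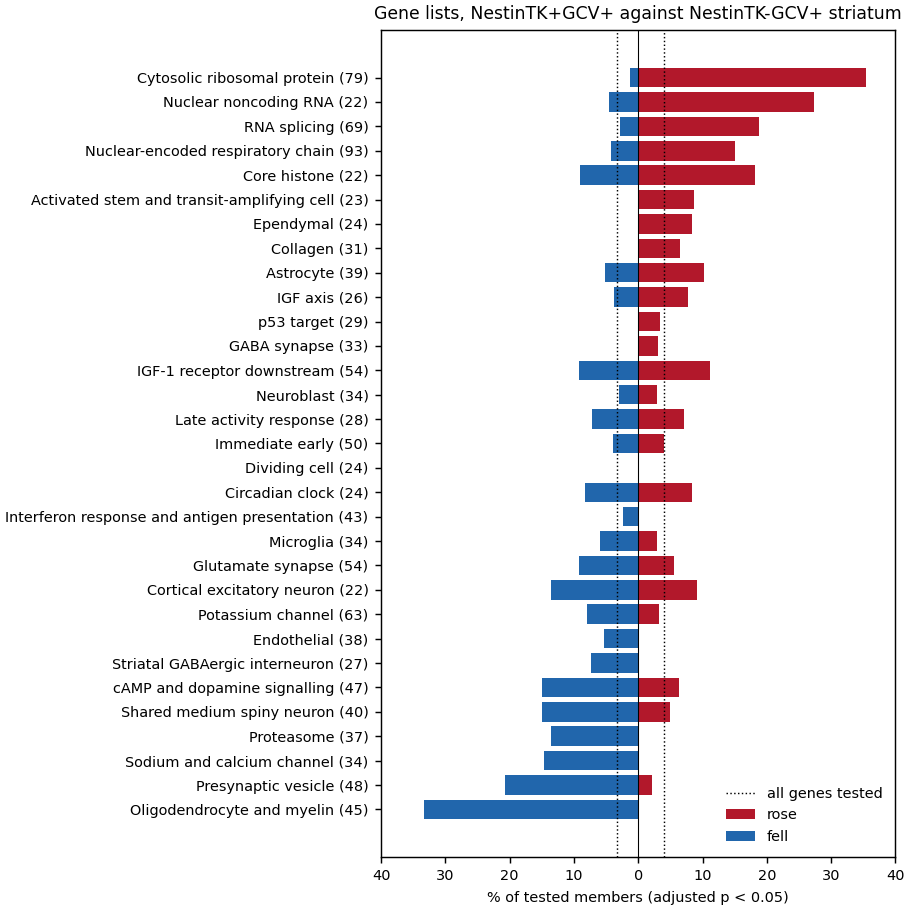
Share of the tested members of each list (with its number of tested members; lists of 20 or more) that rose (red, right) or fell (blue, left) in NestinTK+GCV+ against NestinTK-GCV+ striatum at an adjusted p under 0.05, in percent, with dotted lines at the 4.00% and 3.26% of all genes tested. Cytosolic ribosomal proteins reach the highest share to the right and oligodendrocyte and myelin genes the highest to the left, and no member of the dividing cell list passed.

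Genes of oligodendrocytes and myelin were lower. Of 45 genes, 0 rose and 15 fell, with a median log2 fold change of −0.31, and 20 were lower and 2 higher at an unadjusted p under 0.05. Mag, the myelin-associated glycoprotein, had 146, 151, 173, 182 and 269 CPM in A1 to A5 and 297, 327 and 404 CPM in G1 to G3. Its groups did not overlap, with A5 the highest of its group, and it fell by 0.89 (SE 0.16, edgeR adjusted p = 0.002). Trf, transferrin, had 266, 248, 223, 265 and 370 CPM in A1 to A5 and 514, 368 and 474 CPM in G1 to G3, so that A5 overlapped with G2, and fell by 0.72 (SE 0.15).

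Car2, carbonic anhydrase II, fell by 0.64 (SE 0.13), from 121 to 155 CPM in NestinTK-GCV+ to 85 to 102 CPM in NestinTK+GCV+ libraries. Mal, a proteolipid of compact myelin, fell by 0.58 (SE 0.13), with 206 to 260 against 325 to 385 CPM. The summed level of the list was 4708 to 5580 CPM in NestinTK+GCV+ and 5087 to 6550 CPM in NestinTK-GCV+ libraries, and the PBS libraries lay above most of these, at 7219 to 9580 CPM in NestinTK-PBS+ and 6140 to 12530 CPM in NestinTK+PBS+ mice. The list's median was −0.11 under PBS and −0.79 in the SVZ of the same GCV mice, where values come from another kit. When the mean level of the list was a covariate, 106 genes rose and 38 fell, of which 100 and 33 were among the 582 and 474. Mag, Trf, Car2 and Mal are part of that mean, so that their values in this fit are no test of them. Of 19 tested genes of oligodendrocyte precursors, Cspg5, a chondroitin sulfate proteoglycan also made by other brain cells, rose by 1.60 ± 0.26 with 71.2, 70.2 and 207 CPM in G1 to G3 and 244 to 401 CPM in A1 to A5, and 0 fell.

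Single markers of medium spiny neurons moved either way. Of 40 genes shared by these neurons, 2 rose and 6 fell, with a median of −0.08 and a summed level of 20880 to 23720 CPM in NestinTK+GCV+ and 21040 to 25930 CPM in NestinTK-GCV+ libraries. Syndig1l, a synaptic membrane protein enriched in the striatum, had 162, 147, 169, 183 and 213 CPM in A1 to A5 and 385, 280 and 281 CPM in G1 to G3, and fell by 0.85 (SE 0.14). Rasd2, the striatal small GTPase Rhes, fell by 0.62 (SE 0.13) and Rxrg, a retinoid X receptor, by 0.59 (SE 0.16), which was −0.29 (edgeR adjusted p = 0.312) without G1. Wfs1, wolframin of the endoplasmic reticulum, rose by 1.11 ± 0.19, from 50.4 to 98.3 CPM to 118 to 167 CPM.

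Of 9 genes of the indirect pathway, Adora2a and Drd2 fell. Adora2a, an adenosine receptor of indirect pathway neurons, had 783, 827, 837, 717 and 1004 CPM in A1 to A5 and 1247.5, 1382 and 1205 CPM in G1 to G3, and fell by 0.62 (SE 0.12, edgeR adjusted p = 0.00373). Drd2, the dopamine D2 receptor, had 86.3 to 108 against 122 to 150 CPM and fell by 0.53 (SE 0.13). Penk, the enkephalin precursor of the same cells, had a log2 fold change of 0.25 ± 0.12 (adjusted p = 0.243). Of 9 genes of the direct pathway, with a median of −0.10, Slc35d3, a transporter linked to D1 receptor trafficking, rose by 0.94 ± 0.20. It went from 14.9 to 16.7 CPM to 25.8 to 38 CPM. Pdyn, the dynorphin precursor, had a log2 fold change of 0.57 ± 0.19 (adjusted p = 0.0765) and Tac1, the substance P precursor, one of −0.30 ± 0.15 (adjusted p = 0.234).

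Of 47 genes of cAMP and dopamine signalling, 3 rose and 7 fell, with a median of −0.11. Adcy9, an adenylyl cyclase, had 43.5, 45.6, 54.1, 60.3 and 60.6 CPM in A1 to A5 and 104, 97.6 and 80.9 CPM in G1 to G3, and fell by 0.83 (SE 0.15). Rgs7bp, the membrane anchor of the R7 regulators of G protein signalling, fell by 0.56 (SE 0.13), and Rgs14, another such regulator, rose by 0.78 ± 0.15. For Adora2a, Adcy9, Rgs7bp and Rgs14 the difference from the effect under PBS did not pass (edgeR adjusted p = 0.465, 0.0904, 0.309 and 0.319).

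Of 48 genes of the presynaptic vesicle cycle, 1 rose and 10 fell, with a median of −0.11 (−0.18 to −0.01 in the other fits). The list's mean log2 level, less the mean of the 15 libraries, was −0.18 to 0.05 in A1 to A5. It was −0.06, 0.13 and 0.30 in G1 to G3, so that the groups overlapped and G3 was highest. The PBS libraries ran from −0.23 to 0.19. Rims1, a scaffold of the active zone, had 91.6, 112, 133, 121 and 116 CPM in A1 to A5 and 191, 174 and 186 CPM in G1 to G3, and fell by 0.68 (SE 0.13, edgeR adjusted p = 0.00333). Cplx1, complexin 1, fell by 0.52 (SE 0.12), with 293 to 362 against 443 to 488 CPM. For Sncb, beta-synuclein, and Sv2b, a vesicle glycoprotein, which fell by 0.64 (SE 0.15) and 0.67 (SE 0.17), G3 was the highest library with 334 and 245 CPM. Without G3 the log2 fold changes were −0.37 for Sncb (adjusted p = 0.115) and −0.39 for Sv2b (adjusted p = 0.149, both edgeR). At the glutamate synapse 3 of 54 genes rose and 5 fell. Nrgn, the postsynaptic calmodulin-binding protein neurogranin, had 1579, 1364, 1939, 1629.96 and 2199.8 CPM in A1 to A5 and 3878, 2452 and 3763 CPM in G1 to G3, and fell by 0.95 (SE 0.15). Grik5, a kainate receptor subunit, rose by 1.18 ± 0.26 (1.89 without G3) and Grm7, a presynaptic metabotropic receptor, by 0.82 ± 0.21, and the adhesion molecule Nptn fell by 0.53 (SE 0.13).

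At the GABA synapse, 1 of 33 genes rose and 0 fell, with a median of 0.07. Gabbr1, a subunit of the metabotropic GABA receptor, had a log2 fold change of −0.36 ± 0.12 (adjusted p = 0.0727). Of 63 genes of potassium channels, 2 rose and 5 fell. Kcnd3 rose by 0.90 ± 0.22, and Kcna2, the glial channel Kcnj10 and the calcium-activated Kcnma1 fell by 0.53, 0.65 and 0.56. Without G3, Kcna2 was at −0.35 (edgeR adjusted p = 0.135). Of 34 genes of sodium and calcium channels, 0 rose and 5 fell, among them Cacng7 (log2 fold change −0.74 ± 0.15), Cacnb1 (−0.57 ± 0.15) and Cacna2d1 (−0.46 ± 0.13). Without G2, Cacnb1 was at −0.34 (edgeR adjusted p = 0.25).

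Striatal interneurons were represented by 27 genes of GABAergic and 12 of cholinergic cells, of which 0 rose. Elavl2, an RNA-binding protein of neurons, fell by 0.58 (SE 0.14) and Kcnc1, the fast potassium channel of parvalbumin cells, by 0.55 (SE 0.16), which was −0.36 (edgeR adjusted p = 0.199) without G3. Cck, a peptide of interneurons and of cortical neurons, had 217 CPM in G3, 11.4 and 52.9 CPM in G1 and G2 and 12.9 to 53.7 CPM in A1 to A5, with a log2 fold change of −1.49 ± 0.49 that did not pass (adjusted p = 0.0668). Chat, which makes acetylcholine, had a log2 fold change of −0.53 ± 0.27 (adjusted p = 0.249).

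Of 22 genes of cortical excitatory neurons, 2 rose and 3 fell, with a median of −0.59 under GCV and 0.72 under PBS. The summed level of the list spanned 703 to 1813 CPM within the NestinTK-GCV+ group and 944 to 1295 CPM within the NestinTK+GCV+ group. The median lay between −0.74 and 0.38 in the other fits, so that its direction rests on single libraries. Slc17a7 had 5.66, 22.6, 79, 34.4 and 27.1 CPM in A1 to A5 and 4.75, 59.8 and 412 CPM in G1 to G3 after TMM scaling, with a log2 fold change of −2.25 ± 0.65 (adjusted p = 0.0371) that became 0.06 without G3. It was picked after its values were seen. Rorb, a nuclear receptor of cortical layer 4, fell by 0.75 (SE 0.18) without overlap, and Lamp5, which striatal cells also express, rose by 0.67 ± 0.15. Without G3, Rorb had a log2 fold change of −0.62 (edgeR adjusted p = 0.0707). The part of cortical RNA in the other results was not tested, and 608 genes rose and 378 fell without G3.

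The IGF axis was given in full because Igfbpl1 belongs to it. Of 26 tested genes, 2 rose and 1 fell, with a median of 0.04. Igfbp3, the main IGF carrier of plasma, had 9.19, 14.7, 5.59, 8.45 and 5.96 CPM in A1 to A5 and 1.40, 1.28 and 2.83 CPM in G1 to G3. The groups did not overlap, and it rose by 2.22 ± 0.44 (SE, edgeR adjusted p = 0.00393). In the PBS groups its mean was 4.67 CPM (NestinTK-PBS+) and 7.65 CPM (NestinTK+PBS+), and the difference from the effect under PBS, 1.51, did not pass (adjusted p = 0.232).

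Igfbp7, a binding protein of vessels, had 16.6, 21.2, 22, 24.5 and 7.62 CPM in A1 to A5 and 13.1, 5.11 and 7.78 CPM in G1 to G3, so that A5 overlapped with the NestinTK-GCV+ libraries. It rose by 1.09 ± 0.34 with an adjusted p of 0.0485, which was above 0.05 in 12 of the 22 other fits. Sos2, an exchange factor for Ras, fell by 0.55 (SE 0.16, adjusted p = 0.0423, above 0.05 in 10 of the 22 other fits). Of the receptors, Igf1r had 65.9 to 82 CPM in NestinTK+GCV+ and 51.1 to 66 CPM in NestinTK-GCV+ libraries, a log2 fold change of 0.36 ± 0.15 (adjusted p = 0.149). Insr, the insulin receptor, had 27.1 to 37.5 and 39.6 to 47.1 CPM without overlap and a log2 fold change of −0.47 ± 0.17 (adjusted p = 0.0921). Igf2r, the clearance receptor of IGF-2, had one of 0.23 ± 0.19.

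The ligands were low. Igf1 had 2.12 to 3.38 CPM in NestinTK+GCV+ and 1.95 to 3.30 CPM in NestinTK-GCV+ libraries, and Igf2 9.93 to 24.2 and 9.49 to 15.8 CPM. Their log2 fold changes were 0.14 ± 0.49 and 0.22 ± 0.29. Igfbpl1 was detected in every striatum library of the GCV groups, with 2.83, 9.69, 3.73, 5.07 and 8.94 CPM in A1 to A5 and 8.65, 14.6 and 5.89 CPM in G1 to G3. The groups overlapped, and the log2 fold change was −0.67 ± 0.38 (adjusted p = 0.317). The remaining binding proteins did not pass, with log2 fold changes of 0.32 ± 0.18 for Igfbp4, −0.29 ± 0.19 for Igfbp5, −0.44 ± 0.29 for Igfbp2 and 0.17 ± 0.34 for Igfbp6. Nor did the protease genes Htra1 (−0.30 ± 0.16) and Pappa (1.28 ± 0.94).

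Of the adaptors, Irs2 had a log2 fold change of −0.28 ± 0.15, Irs1 of −0.09 ± 0.35, Irs4 of 0.06 ± 0.96, Gab1 of 0.69 ± 0.25 (adjusted p = 0.0978), Grb10 of 0.36 ± 0.19, Grb14 of −0.37 ± 0.20, Grb2 of 0.03 ± 0.13 and Sos1 of 0.19 ± 0.17. Those of Shc1, Shc2 and Shc3 were −0.60 ± 0.47, −0.07 ± 0.27 and −0.40 ± 0.40. None of these adaptors passed by edgeR, and Gab1 was the only one of them whose groups did not overlap in the higher direction.

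Of 54 genes downstream of the IGF-1 receptor, 6 rose and 5 fell, with a median of −0.14. Map2k1, the kinase MEK1, had 249, 284, 279, 257 and 143 CPM in A1 to A5 and 115, 91.2 and 104 CPM in G1 to G3, and rose by 1.23 ± 0.18 (edgeR adjusted p = 0.0004). Araf, a kinase upstream of it, had 48 CPM in A5, 94 to 107 CPM in A1 to A4 and 16.1 to 41.7 CPM in the NestinTK-GCV+ libraries, and rose by 1.62 ± 0.25. Both genes were higher in all 5 NestinTK+GCV+ libraries, with A5 between the others and the NestinTK-GCV+ group. Nras rose by 0.68 ± 0.16, and Nf1, the neurofibromin gene that turns Ras off, fell by 0.79 (SE 0.20).

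Genes of the SVZ niche were measured in the striatum too. Of 34 tested neuroblast genes, 1 rose and 1 fell, with a median of −0.18 and a summed level of 3204 to 3797 CPM in NestinTK+GCV+ and 2962 to 3516 CPM in NestinTK-GCV+ libraries. The 2 members that passed, Celf4, an RNA-binding protein of many neurons (log2 fold change 0.75 ± 0.15), and the cyclin gene Ccnd2 (−0.58 ± 0.14), are not limited to neuroblasts. Dcx lay between 21.9 and 36.2 CPM in NestinTK+GCV+ and between 18.4 and 24.5 CPM in NestinTK-GCV+ striatum, with overlap and a log2 fold change of 0.40 ± 0.22 (edgeR adjusted p = 0.292). Of 24 tested genes of dividing cells, 0 passed by edgeR, also at an unadjusted p under 0.05, at summed levels of 59.1 to 77.3 and 51.7 to 82 CPM.

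Of 23 genes of activated stem and transit-amplifying cells, Fabp7 and Insm1 rose and 0 fell. Fabp7, a fatty acid binding protein of radial glia and astrocytes, had 18, 42.3, 28.3, 19.7 and 9.93 CPM in A1 to A5 and 3.91, 6.13 and 6.60 CPM in G1 to G3, and rose by 2.07 ± 0.36 (edgeR adjusted p = 0.00142). Of 24 ependymal genes 2 rose and 0 fell, with a median of 0.74 (−0.24 under PBS). Foxj1, the master factor of motile cilia, had 12.7 to 23 CPM in NestinTK+GCV+ and 3.06 to 7.82 CPM in NestinTK-GCV+ libraries and rose by 1.41 ± 0.31, and Rarres2, chemerin, rose by 1.62 ± 0.42. The list's summed level, 133 to 165 against 97.2 to 104 CPM, reached 121 to 200 CPM in the PBS libraries. The mean log2 level of its genes, less the mean of the 15 libraries, was 0.39, 0.21, −0.43, 0.25 and 0.03 in A1 to A5. It was −0.62, −0.35 and −0.41 in G1 to G3, so that A3 lay among the NestinTK-GCV+ libraries. The part of tissue from the ventricular wall was not tested.

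Among glia, 4 of 39 astrocyte genes rose and 2 fell, with a median of −0.16. Mt3, a metallothionein, rose by 1.07 ± 0.22, with A5 (48.7 CPM) among the NestinTK-GCV+ libraries (41.1 to 57.8 CPM) and the others at 93.4 to 126 CPM. Mt2 rose by 0.44 ± 0.12, the gap junction gene Gjb6 fell by 0.66 (SE 0.17), and Crym, on the astrocyte and the cortical list, rose by 0.83 ± 0.23 with overlap (1.45 without G2). Of 34 microglia genes, 1 rose and 2 fell, with a median of −0.22 and summed levels of 1020 to 1152 and 1161 to 1265 CPM. Cx3cr1, the fractalkine receptor, had 172, 176, 145, 156 and 195 CPM in A1 to A5 and 236, 288 and 224 CPM in G1 to G3, and fell by 0.56 (SE 0.13). Csf1r fell by 0.71 (SE 0.18).

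Of 38 endothelial genes 0 rose and 2 fell, Ramp2 by 0.89 (SE 0.25) and Bsg by 0.40 (SE 0.12), with an adjusted p above 0.05 in 10 and 14 of the 22 other fits. Of 16 tested genes of choroid plexus, Enpp2, which oligodendrocytes also make, fell by 0.55 (SE 0.15), and 0 rose. Genes of meningeal and perivascular fibroblasts (19 tested) and of blood (8 tested) did not pass in either direction by edgeR, with 2 higher and 1 lower of the former and 0 of the latter at an unadjusted p under 0.05. Of 31 collagen genes 2 rose and 0 fell, with a median of 0.28. At the study's thresholds 5 were called higher and 0 lower, beside 2.11% and 0.399% of all genes. The mean log2 level of the list, less the mean of the 15 libraries, overlapped between the groups (−0.08 in A3, 0.06 in G1). It was highest in A5 (0.49). Col6a1 had 31.5, 37, 39.1, 33.8 and 24.5 CPM in A1 to A5 and 9.77, 17.6 and 6.37 CPM in G1 to G3, and rose by 1.56 ± 0.26 (edgeR adjusted p = 0.000998). Col25a1, a transmembrane collagen of neurons, rose by 1.02 ± 0.28, while Col1a1 (log2 fold change 1.07 ± 0.37, adjusted p = 0.0773) had 93.4 CPM in A5, above 12.3 to 43.6 CPM in the other 7 libraries.

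Activity genes were examined as well. Of 50 immediate early genes, 2 rose and 2 fell (4.00% each), with a median of −0.10. Cyr61, a secreted matrix protein, had 14.5, 21.2, 24.6, 20 and 32.8 CPM in A1 to A5 and 8.37, 4.85 and 7.07 CPM in G1 to G3, and rose by 1.74 ± 0.29 (edgeR adjusted p = 0.000824). Arc, the activity-regulated cytoskeletal gene, had 18 to 25.1 CPM in A1 to A4 but 44.7 CPM in A5, beside 37 to 50.3 CPM in NestinTK-GCV+ libraries, and fell by 0.77 (SE 0.23). Rheb rose by 0.89 ± 0.23 and Nfil3 fell by 1.52 (SE 0.46), and their adjusted p was above 0.05 in 8 and 14 of the 22 other fits. Of 28 later genes of neuronal activity, the secreted Scg2 and Vgf rose by 0.68 ± 0.17 and 0.51 ± 0.15, and Nptxr and Nptx1 fell. Without G3, Nptx1 had a log2 fold change of −0.73 (adjusted p = 0.27) and Scg2 one of 0.49 (adjusted p = 0.0689, both edgeR).

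Of 24 clock genes, 2 rose and 2 fell. The repressor Bhlhe41 rose by 1.02 ± 0.16 without overlap, and Rorb and Nfil3 fell, within the limits given above. Of 29 targets of p53, Sesn1, a stress-induced inhibitor of growth signalling, rose by 1.498 ± 0.25, with 36.8, 48.1, 42.5, 42.2 and 22.2 CPM in A1 to A5 and 9.77, 11.2 and 19.3 CPM in G1 to G3. Of 43 genes of the interferon response and antigen presentation, 0 rose and Tapbp, a chaperone of MHC class I loading, fell by 0.73 (SE 0.22), with 0 higher and 2 lower at an unadjusted p under 0.05.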

How the data were processed

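RNA from the striatum and SVZ of 15 mice had been sequenced, with 1 library per mouse and tissue. Per the labels and the study's methods, striatum libraries were made with QuantSeq 3′ mRNA-Seq FWD and SVZ libraries with SMART-Seq v4. The authors trimmed reads with Trimmomatic (0.36 in the submitters' processing notes), aligned them to mm10 with STAR 2.5.3a and summarised them with featureCounts. The deposited values are raw counts per gene, not normalized. Whether counting used strand is not given in the sources used here, so that reads of antisense partners may not be separated. Groups came from the labels, which give no batch and no pairing between groups.

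Genes above 1 CPM in 3 or more of the 8 libraries were scaled with TMM factors and fitted with edgeR 4.0.16 (R 4.3.3), called at the study's thresholds and at a Benjamini-Hochberg adjusted p under 0.05. CPM are after TMM, except where library totals are named and in summed list levels. PBS values and the difference of effects come from 1 fit of the 15 striatum libraries, and SVZ values from a fit of its 8 GCV libraries. Logarithms used a prior count of 2. Named were the 12 called genes per direction with the smallest p-values whose groups did not overlap, 3 predicted genes by the same rule, the tested IGF axis genes, up to 4 members by p-value of each of 39 described lists of 57, and Dcx and Igfbpl1. Gm42418, mt-Rnr1, mt-Rnr2, Malat1, Slc17a7, Xist, Clcn2 and, in the SVZ, Mki67, Top2a and Dlx2 were added after their values were seen. A few list members are not reported here. Members and lists were chosen with earlier results of these data known. Positions, gene types and GC content came from GENCODE M21 (GRCm38), in which 97.7% of the tested symbols had an entry. Alternatives used DESeq2 1.42.0, limma 3.58.1 and the settings given in the closing section. Scripts were tested on simulated data with 200 changed genes. Nothing says how many litters or batches the mice came from. Figures used matplotlib 3.10.9.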

Additional observations from a re-analysis of the deposited data

Results flagged for a closer look

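In 15 of 201 named genes, 1 of the 5 NestinTK+GCV+ striatum libraries lay far from the others, by Dixon's test of the gap over the range (critical value 0.71); about 1 in 20 such groups does so by chance. A5 was that library for Rpl35a (41.4 CPM), Mag (269 CPM), Crym (188 CPM), Rgs7bp (916 CPM), Arc (44.7 CPM), Map2k1 (143 CPM) and Araf (48 CPM). A1 was the one for Ice1 (170 CPM), Nuf2 (2.83 CPM) and Grik5 (213 CPM), A2 for Kcnc2 (15.1 CPM), A3 for Mt2 (1079 CPM) and A4 for Shc2 (9.57 CPM), S100a9 (6.19 CPM) and Psmb3 (145 CPM).

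For 42 named genes, the transgene effect under GCV differed from that under PBS in the fit of 15 striatum libraries (edgeR's quasi-likelihood test, adjusted p under 0.05), beside 126 (0.817%) of 15419 genes tested. Most named genes were picked for a small p in the GCV effect, which is 1 term of this difference, so that nothing is read from their number. The difference of the log2 effects, GCV less PBS, was positive for 26 genes. It was largest among these for Clcn2 (2.81), Gm38077 (2.47), Cdk9 (2.21), Nkain2 (2.20), Cyr61 (2.15), Id4 (1.90), Rpl30 (1.85) and Eif4a2 (1.79). It was between these and the smallest for Sesn1 (1.71), Rps27a (1.70), Snrnp70 (1.66), Ints6l (1.58), Ice1 (1.57), Cox7c (1.55), Rpl35a (1.52), Ndufa1 (1.51) and Map2k1 (1.46). The smallest positive differences were those of Ndufb3 (1.36), Gtf2h1 (1.33), Rps23 (1.33), Rsrp1 (1.32), Bhlhe41 (1.32), Ndufb6 (1.31), Sf1 (1.28), Srsf1 (1.25) and Srsf2 (1.09). It was negative for 16 genes, namely Slc17a7 (−6.43), Cck (−4.13), Astn2 (−2.43), mt-Tq (−1.84), Ramp2 (−1.79), Mpi (−1.79), Nptxr (−1.73) and mt-Tl1 (−1.63), and also Iglon5 (−1.45), Cacng7 (−1.25), Sv2b (−1.25), Gm42418 (−1.23), Peg13 (−1.14), Kcnma1 (−0.999), Zdhhc9 (−0.98) and Psmb3 (−0.93). Slc17a7 and Cck are genes of cortical neurons as well, and they were highest in G3, T2 and T4; the part of these libraries in the differences was not tested. The number of all genes that passed this test lay between 0 and 549 when 1 library was left out.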

How the results depend on the processing

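The comparison was refitted under 22 other settings, of which 3 (thinned counts, a correction for end GC and both) were chosen after seeing the data. The settings are not all distinct, since a restriction by mouse number removed G1 alone and is the same fit as that without G1. Of 122 named genes that passed, 31 did so in all of them and 2 in all those that tested them, including the 12 named genes that rose, and 84 did not pass with the myelin level as a covariate, of which 63 kept a log2 fold change within 1.5 times (median ratio 0.914, from 0.159 to 1.63). Without 1 library, 1 (A5) to 36 (G2) of the 122 did not pass, and 22 without G3. The number of genes that rose (582) was 327 in a fit of all 15 striatum libraries, 106 with the myelin level as a covariate and 244 to 771 when 1 library was left out, lowest without G2 and highest without A5. The number that fell (474) was 246 with library totals alone, 156 in the fit of 15 libraries, 38 with the myelin covariate and 192 to 752 when 1 library was left out, again lowest without G2 and highest without A5. The number called lower at the study's thresholds (58) was 30 with library totals alone, 36 in the fit of 15 libraries and 32 to 67 when 1 library was left out. Among all genes that passed, 3 changed sign with the myelin covariate, 2 without G3 and 0 in the other settings. The log2 fold change of Slc17a7 was −2.81 to 0.058 when 1 library was left out, and it changed sign without G3. The test of the difference between the effects under GCV and PBS (126 genes) gave 485 genes with DESeq2, 673 with no filter on low counts and 0 to 549 when 1 library was left out, lowest without P3 and highest without P2. At the study's thresholds that test gave 351 to 779 genes when 1 library was left out. The causes were not tested. No paired analysis was possible because the labels give no replicate numbers that pair mice across groups. NestinTK+GCV+ libraries were shallower than NestinTK-GCV+ libraries, which limits what can be seen of genes near 1 CPM.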

Other observations

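Some gene groups were not described above, and their counts stand beside 4.00% that rose and 3.26% that fell of all genes. Of 26 glycolysis genes 3 rose (11.5%) and 1 fell, with a median log2 fold change of −0.16, and of 27 genes of cholesterol synthesis 0 rose and 3 fell (11.1%), with a median of −0.21. Of 22 neuropeptide genes 2 rose (9.09%) and 0 fell. Of 75 genes of mitochondrial ribosomal proteins 3 rose and 0 fell, with a median of −0.05, beside 28 and 1 of 79 for the cytosolic ones. Of 74 genes of Notch, Wnt, BMP and Hedgehog signalling 4 rose and 2 fell, of 88 genes of axon guidance and adhesion 3 rose and 3 fell, and of 374 zinc finger genes 7 rose and 3 fell.

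Clcn2, a chloride channel gene picked after its values were seen, had 16.3, 27.6, 22.7, 15.5 and 9.27 CPM in A1 to A5 and 3.63, 0.766 and 4.24 CPM in G1 to G3. It rose by 2.64 ± 0.41 on the log2 scale (SE, edgeR adjusted p = 0.000535) and its log2 change under PBS was −0.14.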
